A study of Rattus norvegicus with 6 samples.

Results

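Sqstm1, Lamp1, Ctsb and Ctsd were followed as a small group of lysosome and autophagy receptor genes. The 4 genes were chosen by name, because they are among the TFEB-related genes that the study followed, and each was found in the deposited table by its rat Ensembl identifier, so that 4 of the 26405 distinct genes listed are described here. The identifiers were ENSRNOG00000003147 for Sqstm1, ENSRNOG00000019629 for Lamp1, ENSRNOG00000010331 for Ctsb and ENSRNOG00000020206 for Ctsd. The pairing of symbol and identifier came with the definition of the group, since the table itself carries no symbols.

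The table held RNA-sequencing values for 6 libraries, 3 labelled Control and 3 labelled as treated with Icariin, a plant flavonoid. Per the labels, all 6 libraries came from primary rat microvascular vascular smooth muscle cells of wild-type rats, and all cultures were starved of serum beforehand. Control cultures then received fresh medium with neither serum nor added growth factors, and Icariin cultures received the compound. Control RNA was collected at 24 h and Icariin RNA at 48 h, so the treatment and the time in culture cannot be told apart in any comparison below. Neither the dose used on these cells nor the age or sex of the rats is given in the labels, and it is not stated whether the 3 replicates of a group came from different animals. The p-values therefore measure the spread between these libraries, all 6 of which carry the same batch date. In limma, the program used for the group differences, the spread of each gene was also drawn toward that of other tested genes. The methods of the paper describe its RNA-sequencing in mouse C2C12 myotubes after 24 h of Icariin, which differs from the labels in species, cell type and time. The labels were used here, and the labelled cell type was not checked against smooth muscle markers, because the marker symbols could not be paired with identifiers.

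The 4 genes stand at successive points of autophagy. Sqstm1 encodes an adaptor that binds ubiquitinated cargo, damaged mitochondria included, and links it to LC3 on the growing autophagosome, and the protein is itself degraded with its cargo. Lamp1 encodes a heavily glycosylated protein that makes up much of the lysosomal membrane. Ctsb and Ctsd encode lysosomal proteases, a cysteine and an aspartic cathepsin respectively, which digest what the autophagosome delivers. The transcription factor TFEB is known to raise transcription of many such genes by binding E-box elements near their start sites, and in starved cells it moves from the cytoplasm to the nucleus.

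Promoter windows are shown because TFEB-type elements contain the E-box core CACGTG. Windows were available for 3 of the 4 genes. The promoter set used held none for Ctsb, so Ctsb was not examined for this core. The sequences are RefSeq windows on the rat build GRCr8, matched by symbol, from 250 bases before to 50 bases after a transcript start, all read 5′ to 3′ along the gene, which lies on the minus strand in each case. Capitals mark every CACGTG. The windows are chr16:83075014-83075313 for Lamp1, chr1:206968772-206969071 for Ctsd and chr10:35037701-35038000 for Sqstm1.
Lamp1: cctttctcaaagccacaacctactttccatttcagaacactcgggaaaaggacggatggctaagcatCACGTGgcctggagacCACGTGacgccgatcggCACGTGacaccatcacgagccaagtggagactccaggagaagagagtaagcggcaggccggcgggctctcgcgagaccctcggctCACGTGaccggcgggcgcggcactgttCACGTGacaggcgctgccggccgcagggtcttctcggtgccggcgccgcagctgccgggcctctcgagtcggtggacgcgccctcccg
Ctsd: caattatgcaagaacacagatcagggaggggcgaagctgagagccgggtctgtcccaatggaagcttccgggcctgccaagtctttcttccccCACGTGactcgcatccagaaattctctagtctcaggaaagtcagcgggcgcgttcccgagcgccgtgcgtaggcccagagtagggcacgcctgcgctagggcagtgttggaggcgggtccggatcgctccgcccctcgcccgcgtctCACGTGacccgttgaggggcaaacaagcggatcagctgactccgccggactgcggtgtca
Sqstm1: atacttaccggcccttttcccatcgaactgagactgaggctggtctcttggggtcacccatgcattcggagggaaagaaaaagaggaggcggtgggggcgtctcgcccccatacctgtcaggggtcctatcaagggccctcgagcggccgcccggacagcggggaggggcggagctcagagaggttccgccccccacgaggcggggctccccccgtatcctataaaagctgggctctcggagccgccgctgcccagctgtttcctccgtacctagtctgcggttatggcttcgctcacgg

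The Lamp1 window held 5 copies of CACGTG, which began 183, 167, 150, 65 and 38 bases upstream of the start. The Ctsd window held 2 copies, beginning 157 and 10 bases upstream, and the Sqstm1 window held 0. CACGTG reads the same on both strands, so each copy was counted once. Of the 33469 RefSeq promoter windows of the same length, 6.42% held at least 1 copy, 0.52% held at least 2, and only 1 window, that of Lamp1, held at least 5. The 8-base form TCACGTGA, which contains the core, occurred in 0.777% of all windows, at 2 places in Lamp1 and at 1 place in Ctsd. A longer form, with a G before and a C after those 8 bases, was also searched. It occurred in 0.233% of all windows and at 0 places in the Lamp1, Ctsd and Sqstm1 windows. The Lamp1 start is that of 1 RefSeq transcript and lies 7780 bases inside the span that RefSeq gives the gene. A match of letters is a description and not evidence of binding.

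**Figure D1:**
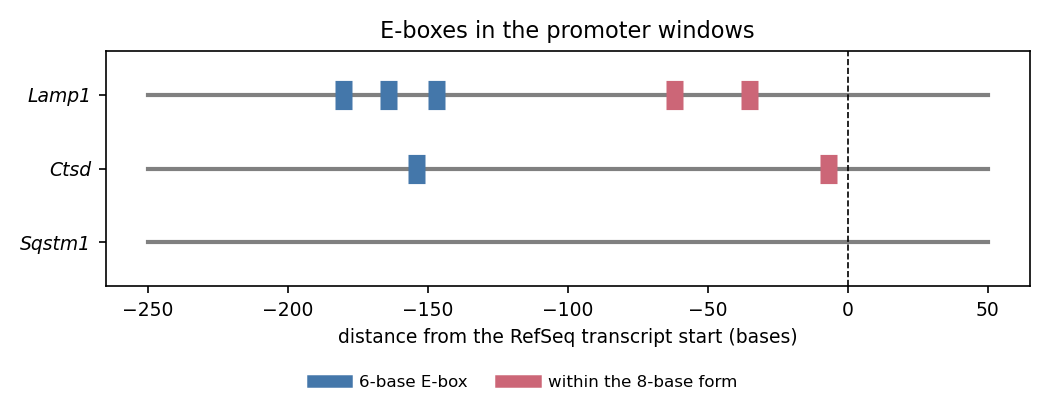
Positions of CACGTG in the promoter windows of Lamp1, Ctsd and Sqstm1, in bases from the RefSeq transcript start, with upstream positions negative. Blue blocks are cores outside and red blocks are cores inside the 8-base form TCACGTGA; Lamp1 has 5 blocks, Ctsd 2 and Sqstm1 0.

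Expression was given as FPKM, fragment numbers divided by the length of the transcript and by the size of the library, so that levels of different genes can be compared. All 4 genes were expressed in all 6 libraries, between 28.5 and 960 FPKM. The tested genes were the 10258 that reached 1 FPKM in 3 or more libraries, which include all 4, and each of the 4 ranked high among them in every library. Lamp1 lay between the 97.7th and 99.1st percentile, Sqstm1 between the 89.1st and 97.4th, Ctsb between the 89.0th and 99.6th, and Ctsd between the 84.1st and 98.4th. These are values of whole cultures, in which fewer cells expressing a gene and less RNA of it per cell cannot be told apart.

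The libraries of a group were not close replicates over the table as a whole. Spearman's rho across the tested genes was 0.634 to 0.645 for pairs within a group and 0.582 to 0.599 for pairs between groups, as a description over genes, which are not independent. The read depth is unknown, because FPKM were given without counts, and among the 1151 genes above 0 and below 1 FPKM in every library the most common ratio to Control 1 was shared by at most 0.782%. No value of 1e+06 FPKM or more, of which the table held 9 in 4 genes, belonged to the 4 genes described here.

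Sqstm1, the cargo receptor, was at 151, 41.6 and 122 FPKM in Control 1 to 3 and at 176, 146 and 70.2 FPKM in Icariin 1 to 3. Control 2 was the lowest library and Icariin 1 the highest, and the groups overlapped. The mean was 105 ± 56.7 FPKM in the control libraries and 131 ± 54.5 FPKM in the Icariin libraries (SD, n = 3 each). On the log2(FPKM + 1) scale, the difference of Icariin minus control was 0.41 with a standard error of 0.81 and a 95% interval from -1.34 to 2.16 (limma, adjusted p = 0.912 over all tested genes). This interval spans from a 2.54-fold decrease to a 4.46-fold increase. The difference was smaller than the spread between replicates, which was 0.98 in the control and 0.69 with Icariin (SD of log2 values, n = 3 each). Its sign rested on 1 library, since without Control 2 the difference was -0.15 (limma, adjusted p = 0.970).

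Lamp1, the lysosomal membrane protein, had the least variable level of the 4 genes. It was at 438, 313 and 252 FPKM in Control 1 to 3 and at 199, 366 and 214 FPKM in Icariin 1 to 3. Control 1 was the highest library and Icariin 1 the lowest, with Icariin 2 above Control 2 and 3, so the groups overlapped. The mean was 334 ± 94.5 FPKM in the control libraries and 260 ± 92.5 FPKM in the Icariin libraries (SD, n = 3 each). The log2 difference of Icariin minus control was -0.38 with a standard error of 0.77 and a 95% interval from -2.04 to 1.28 (limma, adjusted p = 0.913). The interval allows a decrease of up to 4.12-fold and an increase of up to 2.43-fold. It is wider than the Lamp1 replicates alone would make it, since limma drew their spread toward that of other genes. The SD of Lamp1 log2 values, pooled over both groups, was 0.44, against a median of 0.99 for tested genes of similar level. Of the 9 pairs of an Icariin and a control library, the Icariin library was the higher in 2 for Lamp1. The same count was 6 for Sqstm1, 3 for Ctsb and 7 for Ctsd. The difference stayed negative when any 1 library was left out, with values from -0.65 without Icariin 2 to -0.17 without Control 1, and none of these passed the test.

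Ctsb, the cysteine protease, was the most variable of the 4 genes among the Icariin libraries. It was at 193, 371 and 197 FPKM in Control 1 to 3 and at 111, 960 and 46.5 FPKM in Icariin 1 to 3. Icariin 2 had the highest value and Icariin 3 the lowest value of all 6 libraries, 20.7-fold apart, and all control values fell between them. The arithmetic mean was 254 ± 101 FPKM in the control libraries and 372 ± 510 FPKM in the Icariin libraries (SD, n = 3 each), whereas the medians were 197 and 111 FPKM. The mean and the median thus differed in direction, and the log2 difference was -0.50 with a standard error of 1.05 and a 95% interval from -2.77 to 1.77 (limma, adjusted p = 0.918). The interval runs from a 6.80-fold decrease to a 3.42-fold increase. It is narrower than the Ctsb replicates alone would make it. Their SD of 1.62 log2 units, pooled over both groups, was drawn toward the lower spread of other genes. Single libraries decided the direction and the size, as the log2 difference was 0.43 without Icariin 3 (limma, adjusted p = 0.935) and -1.74 without Icariin 2 (limma, adjusted p = 0.623).

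Ctsd, the aspartic protease, had the largest log2 estimate of the 4 genes with all 6 libraries, but not without Control 1 or Icariin 2. Counted in FPKM units and not as a ratio, the difference between group means was larger for Ctsb. It was at 28.5, 171 and 184 FPKM in Control 1 to 3 and at 115, 298 and 231 FPKM in Icariin 1 to 3. Control 1 was the lowest library, Icariin 2 and Icariin 3 were the highest, and Icariin 1 lay below Control 2 and Control 3, so that the groups overlapped. The mean was 128 ± 86.3 FPKM in the control libraries and 215 ± 92.5 FPKM in the Icariin libraries (SD, n = 3 each). The log2 difference was 1.03, a 2.05-fold higher level with Icariin on the log2(FPKM + 1) scale, with a standard error of 0.90 and a 95% interval from -0.91 to 2.98 (limma, adjusted p = 0.733). The difference was smaller than the control SD of 1.50 and larger than the Icariin SD of 0.71 on the log2 scale. It rested largely on Control 1, without which it was 0.17 (limma, adjusted p = 0.965), and with any other library left out it was between 0.75 and 1.49.

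**Figure D2:**
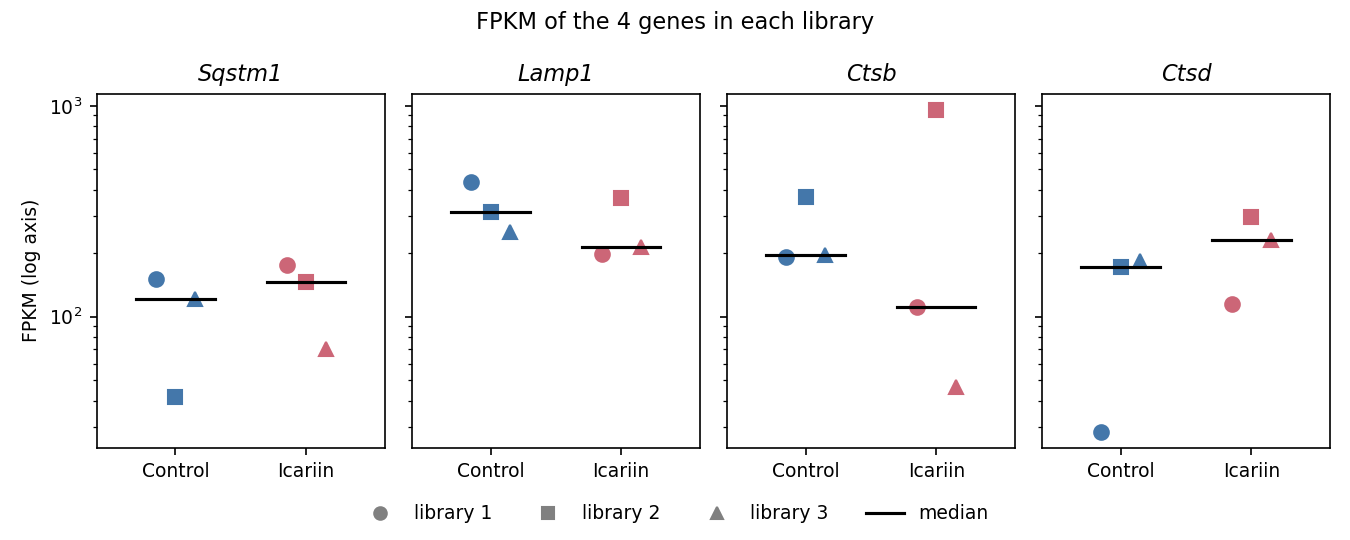
FPKM (log axis) of Sqstm1, Lamp1, Ctsb and Ctsd in each of the 3 Control (blue) and 3 Icariin (red) libraries; the marker gives the library number and the line the group median. The groups overlap for each gene, and the 2 extremes of Ctsb, 46.5 and 960 FPKM, are both Icariin libraries.

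None of the 4 genes passed the test of the group difference, and neither did any other gene. With an adjusted p under 0.05, limma called 0 of 10258 genes (0%) and 0 of the 4, whether or not a log2 change of more than 1 was also required. With an unadjusted p under 0.05, it called 1069 genes (10.4%), or 1032 (10.1%) when such a change was required, and 0 of the 4 in both cases. By the size of their p-values, Ctsd stood at the 36.9th percentile of all tested genes, counted from the smallest p, and Sqstm1, Lamp1 and Ctsb between the 68.3rd and the 70.2nd. The groups did not overlap for 1730 of the tested genes (16.9%) and for 0 of the 4. In absolute log2 fold change, the 4 genes lay between the 32.8th percentile for Lamp1 and the 73.1st for Ctsd. A two-sided exact permutation test over the libraries gave p = 0.6 for Sqstm1, 0.3 for Lamp1, 0.8 for Ctsb and 0.4 for Ctsd, where 3 libraries against 3 cannot go below 0.1. With these intervals, a rise or a fall of more than 2-fold is within the interval of each of Sqstm1, Lamp1 and Ctsb, and for Ctsd the interval runs from a 1.88-fold decrease to a 7.88-fold increase. A missed threshold at this spread does not show that levels were equal.

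**Figure D3:**
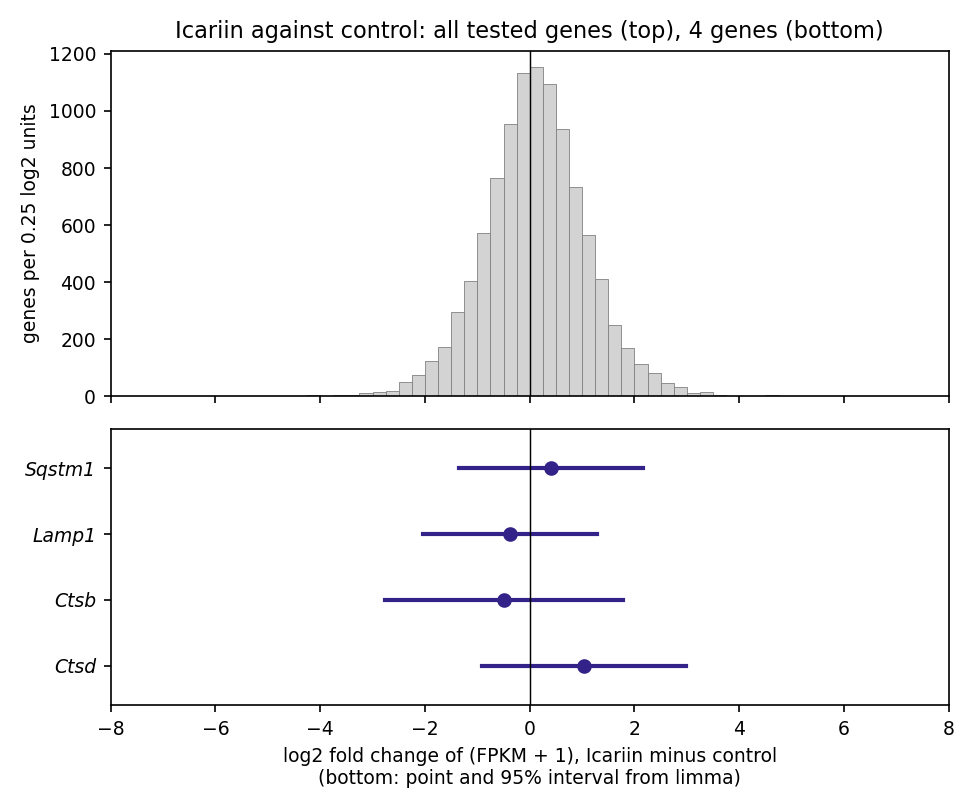
Top, number of tested genes per 0.25 units of log2 fold change of FPKM + 1, Icariin minus control; bottom, the same quantity for the 4 genes, with points for estimates and lines for 95% intervals from limma. All 4 intervals include 0, from -2.77 at the lower end of Ctsb to 2.98 at the upper end of Ctsd.

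The signs of the 4 estimates did not line up by role. The cargo receptor Sqstm1 and the protease Ctsd were estimated higher with Icariin, and the membrane protein Lamp1 and the protease Ctsb lower. In the values as deposited, the log2 difference had a median of 0.11 over the tested genes, and whether this differs from 0 was not tested. It was -0.01 once libraries were scaled by their median of ratios, a scaling that itself brings this median near 0. After this scaling, the log2 differences were 0.25 for Sqstm1, -0.53 for Lamp1, -0.64 for Ctsb and 0.88 for Ctsd, with each sign as before.

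The spread between replicates differed widely among the 4 genes. Pooled over both groups, the SD of log2(FPKM + 1) between replicates was 0.44 for Lamp1, 0.85 for Sqstm1, 1.17 for Ctsd and 1.62 for Ctsb. All 4 belonged to the highest decile of tested genes by mean level, 1026 genes whose median SD was 0.99. Within that decile, Lamp1 was at the 8.38th percentile of spread, Sqstm1 at the 38.8th, Ctsd at the 61.2nd and Ctsb at the 82.5th. In terms of folds, control libraries spanned 1.74-fold for Lamp1, 1.92-fold for Ctsb, 3.63-fold for Sqstm1 and 6.45-fold for Ctsd. Icariin libraries spanned 1.84-fold for Lamp1, 2.51-fold for Sqstm1, 2.59-fold for Ctsd and 20.7-fold for Ctsb. The wide values thus did not fall in 1 group or 1 library, since Sqstm1 was lowest in Control 2, Ctsd in Control 1 and Ctsb in Icariin 3.

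**Figure D4:**
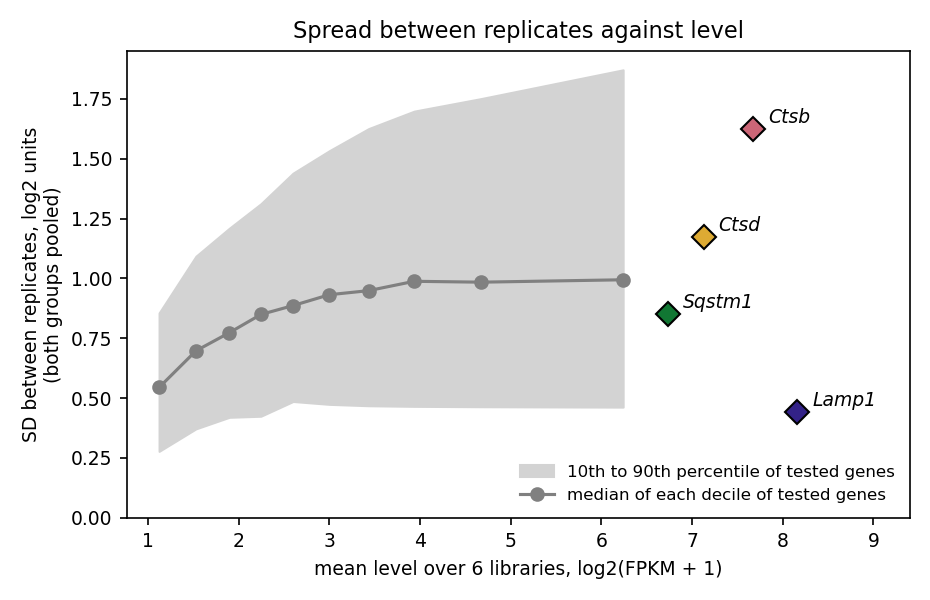
SD between replicates of log2(FPKM + 1), pooled over both groups, against the mean level over 6 libraries. The grey line and band give the median and the 10th to 90th percentile for each decile of the 10258 tested genes by level, placed at its median level; Lamp1 (0.44) and Ctsb (1.62) lie furthest apart of the 4 genes.

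Levels of the 4 genes were next compared with each other. By group medians of FPKM, taken across libraries, the order in the control was Lamp1 at 313 FPKM, Ctsb at 197, Ctsd at 171 and Sqstm1 at 122. With Icariin it was Ctsd at 231 FPKM, Lamp1 at 214, Sqstm1 at 146 and Ctsb at 111. Ratios within a library, where its scaling cancels, did not separate most neighbours in these orders beyond their spread. In the control, the log2 ratio of Lamp1 to Ctsb was 0.43 ± 0.72, that of Ctsb to Ctsd 1.32 ± 1.34 and that of Sqstm1 to Ctsd -0.08 ± 2.27 (SD, n = 3 each). With Icariin, the log2 ratio of Lamp1 to Ctsd was 0.33 ± 0.45 and that of Sqstm1 to Ctsb -0.48 ± 1.93 (SD, n = 3 each), so that both mean ratios ran against the order of the medians. Lamp1 was above Ctsd in 2 of the 3 Icariin libraries, and Sqstm1 was above Ctsb in 2 of 3. The order held throughout only between Lamp1 and Sqstm1, as Sqstm1 was the higher in 0 of 6 libraries, with a log2 ratio of Sqstm1 to Lamp1 of -1.83 ± 0.97 in the control and -1.04 ± 0.76 with Icariin (SD, n = 3 each).

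The 2 proteases did not keep a fixed proportion. The log2 ratio of Ctsb to Ctsd was 2.76, 1.11 and 0.10 in Control 1 to 3 and -0.05, 1.69 and -2.31 in Icariin 1 to 3, so that Ctsb exceeded Ctsd in 3 of 3 control libraries and in 1 of 3 Icariin libraries. Icariin 2 lay above 2 of the control libraries, and the groups overlapped. The difference of Icariin minus control in this ratio was -1.55 (two-sided exact permutation test, p = 0.4, adjusted p = 0.75 over the 6 pairs). The log2 ratio of Lamp1 to Ctsd was 3.94, 0.87 and 0.46 in Control 1 to 3 and 0.79, 0.30 and -0.11 in Icariin 1 to 3. The difference in that ratio was -1.43 (exact permutation p = 0.2, adjusted p = 0.75), the smallest p of the 6 pairs, and its control mean of 1.76 was raised by Control 1, the library in which Ctsd was at 28.5 FPKM. For the other 4 pairs the exact permutation p was between 0.5 and 1, and the groups overlapped in each.

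**Figure D5:**
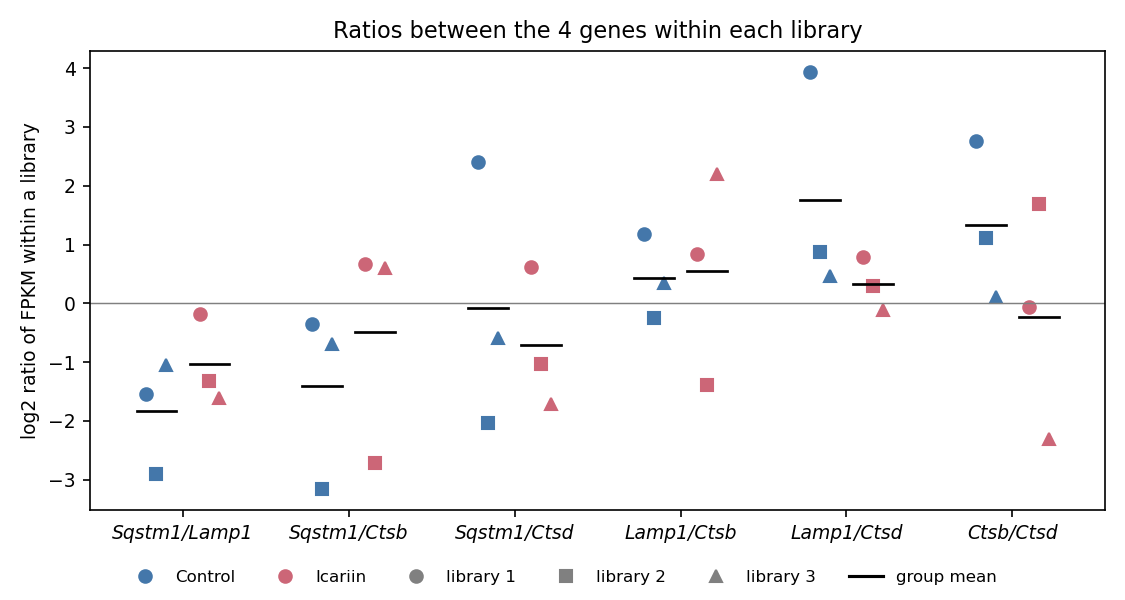
Log2 ratio of FPKM for each pair of the 4 genes within each library, with Control in blue, Icariin in red, the marker giving the library number and the line the group mean; values above 0 mean that the first gene is the higher. Sqstm1/Lamp1 is below 0 in all 6 libraries, and every pair overlaps between the groups.

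Genes with the most similar pattern over the 6 libraries were sought among 10253 other tested genes below 1e+06 FPKM, by Pearson's r of log2(FPKM + 1), as a description with no test. The closest to Sqstm1 was ENSRNOG00000015984 (r = 0.992, rho = 0.943), and the closest to Lamp1 was ENSRNOG00000015953 (r = 0.985, rho = 1). The closest to Ctsb was ENSRNOG00000014883 (r = 0.995, rho = 1), and the closest to Ctsd was ENSRNOG00000008129 (r = 0.997, rho = 0.943). A high r does not require a similar level or size of change. ENSRNOG00000008129 had means of only 1.30 FPKM in the control and 1.81 FPKM with Icariin, near the filter. Its log2 difference was 0.35, against 1.03 for Ctsd. An r above 0.9 was reached by 96 genes for Sqstm1, 68 for Lamp1, 63 for Ctsb and 179 for Ctsd, so a close match over 6 libraries was not rare. None of the 4 genes was the closest match of another.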

How the data were processed

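Values for 6 RNA-sequencing libraries (3 Control, 3 Icariin) were deposited by the authors as FPKM, 1 column per library, with replicates not pooled. The submitters' processing notes name Bowtie2, RSEM 1.3.1 and DESeq2 1.4.5, without saying which made the table. The rat build and annotation are not given in the sources used here, and the paper's text names a mouse genome. Columns were matched to samples by title, and 0 columns were left out. The table had 26407 rows, and 2 repeated identifiers were dropped. FPKM are not counts, so the count model of the paper was not used and depth and counting error are unknown. Group differences were fitted with limma 3.58.1 in R 4.3.3 (mean-variance trend, all 6 libraries, no covariate) on log2(FPKM + 1) of the 10258 genes that reached 1 FPKM in 3 or more libraries. This scale understates changes of low genes. Standard errors, intervals and p-values from limma used moderated variances, which combine the variance of a gene with a trend over all tested genes. P-values were adjusted by Benjamini-Hochberg, and a call needed an adjusted p under 0.05 together with a log2 change of more than 1 in either direction. Single values were tested by two-sided exact permutation. The fit was tested on simulated data. Genes named were the 4 genes and, for each, the tested gene with the highest r. The 4 genes, lists and tests were chosen with earlier results of these data known. Lists of other lysosome, autophagy and marker genes were not analysed here, because the gene table pairs no rat Ensembl identifiers with symbols.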

Additional observations from a re-analysis of the deposited data

How the results depend on the processing

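The log2 fold changes of the 4 genes were recomputed under 2 other pseudocounts (0.1 and 0.01), 2 other filters, 3 scalings, without genes of 1e+06 FPKM or more, without the trend, with array weights, with a replicate block, without each library in turn, and as percentiles within a library. In 70 of 72 results the sign was the one reported, and no limma fit put any of the 4 past the threshold. The exceptions were Sqstm1 without Control 2 (-0.15) and Ctsb without Icariin 3 (0.43). The 72 include results whose sign could not change. The other filters, the omission of genes of 1e+06 FPKM or more, the fit without the trend and the replicate block leave the log2 difference of a gene as it was. When 1 library was left out, the values ranged from -0.15 to 0.80 for Sqstm1, from -0.65 to -0.17 for Lamp1, from -1.74 to 0.43 for Ctsb and from 0.17 to 1.49 for Ctsd. Over the alternatives fitted with limma, the adjusted p was at least 0.821 for Sqstm1, 0.848 for Lamp1, 0.623 for Ctsb and 0.674 for Ctsd. The number of genes called by limma was 0 in each of these fits and 0 at an adjusted p with no fold change threshold, and with an unadjusted p under 0.05 together with a log2 change of more than 1 it was 1032, of which 0 were among the 4. With the replicate number as a block, the values stayed at 0.41 for Sqstm1, -0.38 for Lamp1, -0.50 for Ctsb and 1.03 for Ctsd. As each number has 1 library of each group, such a block can change only the precision of these values, and 0 genes were called. Libraries numbered 1, 2 and 3 had correlations of -0.0203, 0.0213 and -0.0196 between their deviations from the mean of each group, none of them over 0.1, and the labels do not say that a number marks a shared animal or culture, so the numbers were not taken to pair the libraries. The unknown depth sets no usable limit on the precision, which rests on 3 libraries per group and, in limma, also on the variances of other tested genes.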
